A study of Mus musculus with 3 samples.

Results

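The respiratory chain genes were chosen by symbol: nuclear genes that begin with Nduf followed by a, b, c, s or v, with Uqcr, with Cox4 to Cox8 or with Atp5, together with Sdha, Sdhb, Sdhc, Sdhd, Cycs and Cyc1, and mitochondrial genes that begin with mt-Nd, mt-Co, mt-Atp or mt-Cyt, with -ps pseudogenes left out. This rule gave 107 of the 41605 gene rows, 94 in the nucleus and 13 on mitochondrial DNA. The nuclear genes comprised 36 of complex I, 8 Ndufaf assembly factors, 4 of complex II, 9 of complex III, 17 of complex IV, 15 of complex V (ATP synthase), cytochrome c (Cycs), the supercomplex factor Cox7a2l, 2 Ndufa4 genes whose products associate with complex IV, and Atp5s, which is not a structural subunit. Of the mitochondrial genes, 7 encode complex I, 1 complex III, 3 complex IV and 2 complex V.

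The measurements were unique molecular identifier (UMI) counts from single endothelial cells of gastrocnemius muscle of C57BL/6N mice, sorted as CD31+, CD45- and SYTOX blue- and captured with the 10x 3' chemistry. There were 3 libraries, 1 for each group. The running library came from mice housed singly that ran voluntarily on a wheel for 14 days, the sedentary library from singly housed mice in cages of the same size with no wheel, and the untreated library from mice labelled as having no treatment, whose housing was not stated. No genetic change is labelled in any group, and the sources used here give no age, sex, number of animals in a library or day of preparation. With 1 library in each group, differences between libraries have no replicate check, intervals cover counting error only, and treatment and preparation cannot be told apart.

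The respiratory chain passes electrons from NADH (complex I) and succinate (complex II) through complex III and cytochrome c to oxygen at complex IV, and complex V uses the resulting proton gradient to make ATP. Most subunits are encoded in the nucleus and imported, while a small hydrophobic core is transcribed and translated inside the mitochondrion, so that 2 genomes supply complexes I, III, IV and V. Endothelial cells are known to make much of their ATP by glycolysis, and their mitochondria also serve biosynthesis and signalling.

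The libraries held 3260, 4079 and 4376 barcodes in the running, sedentary and untreated groups, with 5983685, 5625068 and 8002866 UMIs, and 3212, 4016 and 4326 cells were kept. Another library held the same barcode sequence for 43, 55 and 52 of these barcodes. The 107 genes were kept out of the clustering, so that they defined no class. Capillary-like clusters held 2147 running, 2833 sedentary and 2168 untreated cells, artery-like clusters 595, 789 and 1376, and vein-like clusters 228, 229 and 622. The clusters that held most of a class differed between libraries: of the capillary-like cells, cluster 0 held 1032 running, 710 sedentary and 1242 untreated cells, while cluster 1, with a median of 684 UMIs per cell, held 499, 1211 and 267. Markers of leukocytes summed to 0.302 to 38.2 CPM (UMIs per 1000000 UMIs of a class) over these classes and of adipocytes to 0 to 0.715 CPM. Haemoglobin and other erythrocyte markers, 5 to 6 of 7 of them detected in capillary-like cells with Slc4a1 at 0, summed to 678, 1044 and 169 CPM there in the running, sedentary and untreated libraries; their part in the differences below was not tested. Muscle fibre markers (14 to 15 of 17 detected, Myh1 and Myh7 at 0 in each library) summed to 139, 98.9 and 88.6 CPM in capillary-like cells of these libraries, with 54.1, 58.6 and 52.0 CPM in artery-like and 49.1, 38.0 and 18.7 CPM in vein-like cells. Lymphatic markers (8 to 9 of 9 detected) summed to 172, 96.5 and 59.3 CPM in capillary-like cells, led by Ccl21a in the running and Flt4 in the other libraries. The part of both sets was not tested either.

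Both genomes contributed a few percent of all UMIs. In capillary-like cells the 94 nuclear genes summed to 20559.8, 20576 and 17752 CPM in the running, sedentary and untreated libraries. The 13 mitochondrial genes summed to 26009, 27543 and 21404 CPM. Running and sedentary cells were thus close to each other for both genomes, and untreated cells were lowest. In artery-like cells the nuclear sum was 21207, 21468 and 18279 CPM and the mitochondrial sum 29863, 28958 and 24683 CPM. In vein-like cells the nuclear sum was 20211, 21563 and 16110 CPM, but the mitochondrial sum reached 34999.9, 37087 and 30434 CPM. The mitochondrial UMIs per nuclear UMI were 1.73, 1.72 and 1.89 in vein-like cells, 1.41, 1.35 and 1.35 in artery-like cells and 1.27, 1.34 and 1.21 in capillary-like cells. Of these 3 classes, vein-like cells had the highest ratio in every library. Mural-like cells (cluster 11, described below) had a higher ratio in each library. Capillary-like cluster 1 had mitochondrial sums of 33995, 35040 and 28406 CPM, near vein-like cluster 5 at 34031, 34696 and 30228 CPM. The other capillary-like clusters lay at 20249 to 26798 CPM, and artery-like clusters 3 and 4 at 23210 to 32675 CPM. Artery-like cluster 13 (9, 7 and 46 cells) was at 58491, 45714 and 44276 CPM.

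**Figure D1:**
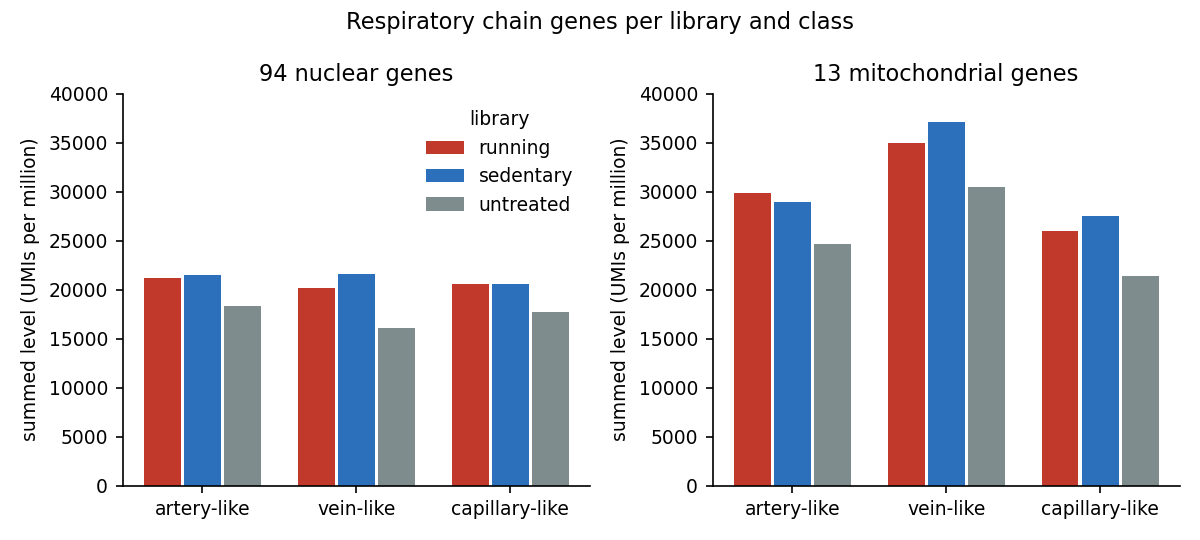
Summed level (CPM) of the 94 nuclear and the 13 mitochondrial genes in artery-like, vein-like and capillary-like cells, 1 bar for each library, with no replicates. Nuclear sums lie between 16110 and 21563 CPM in these classes. Among them, mitochondrial sums are highest in vein-like cells, at 30434 to 37087 CPM.

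The classes were compared within the libraries, with UMIs summed per class and library (9 sums), edgeR's quasi-likelihood test with the library as a block, and Benjamini-Hochberg adjustment over 10134 genes at a threshold of 0.05. Of the 107 genes, 99 passed the filter on low counts (86 nuclear and all 13 mitochondrial). The other 8, namely Cox4i2, Cox6a2, Cox6b2, Cox7a1, Cox7b2, Cox8b, Cox8c and Atp5s, had 0 to 107 UMIs in all endothelial-like cells. The p-values measure the spread of the class difference over 3 libraries whose mice were treated differently.

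Mitochondrial transcripts were higher in vein-like than in capillary-like cells across all 4 complexes that they serve. Of the 13 genes, 12 were called higher and 0 lower (also 0 lower at an unadjusted p under 0.05 and by DESeq2), where 12.8% of all tested genes were called higher and 10.6% lower. Their median log2 fold change was 0.59, against -0.01 over all tested genes. The exception was mt-Nd3, a complex I subunit, at a log2 fold change of 0.12.

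The core catalytic subunit of complex IV, mt-Co1 (chrM:5328-6872, + strand, GRCm38), was at 6089, 6345 and 6563 CPM in vein-like cells of the running, sedentary and untreated libraries. In capillary-like cells it was at 3424, 3563 and 3680 CPM, so that the classes did not overlap. The log2 fold change was 1.00 ± 0.07 (SE; edgeR adjusted p = 3.54e-14). The proton-pumping complex I subunit mt-Nd4 was at 2537, 2572 and 2136 CPM in vein-like cells, against 1480, 1554 and 1245 CPM in capillary-like cells, and its log2 fold change was 0.92 ± 0.07 (edgeR adjusted p = 8.59e-13). Its neighbour mt-Nd5, another proton-pumping subunit, was at 319, 288 and 339 CPM in vein-like cells, against 196, 191 and 220 CPM in capillary-like cells (log2 fold change 0.80 ± 0.09, edgeR adjusted p = 7.04e-09). Both separated the classes in all 3 libraries.

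mt-Nd6, a complex I subunit and the only member encoded on the opposite strand of mitochondrial DNA (chrM:13552-14070, - strand), had the largest fold change on the fewest UMIs. It was at 32.7, 39.7 and 52.9 CPM in vein-like cells and at 20.9, 15.2 and 22.7 CPM in capillary-like cells (log2 fold change 1.30 ± 0.20, edgeR adjusted p = 1.84e-06). These levels stood for 24, 23 and 85 UMIs in vein-like cells. The classes did not overlap, and the untreated vein-like cells were highest. mt-Cytb of complex III (0.59), mt-Co3 (0.60) and mt-Co2 (0.52) of complex IV and mt-Atp6 of complex V (0.59) had similar log2 fold changes to one another, all called, while mt-Nd1 (0.25) and mt-Nd2 (0.38) of complex I were called at smaller sizes.

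**Figure D2:**
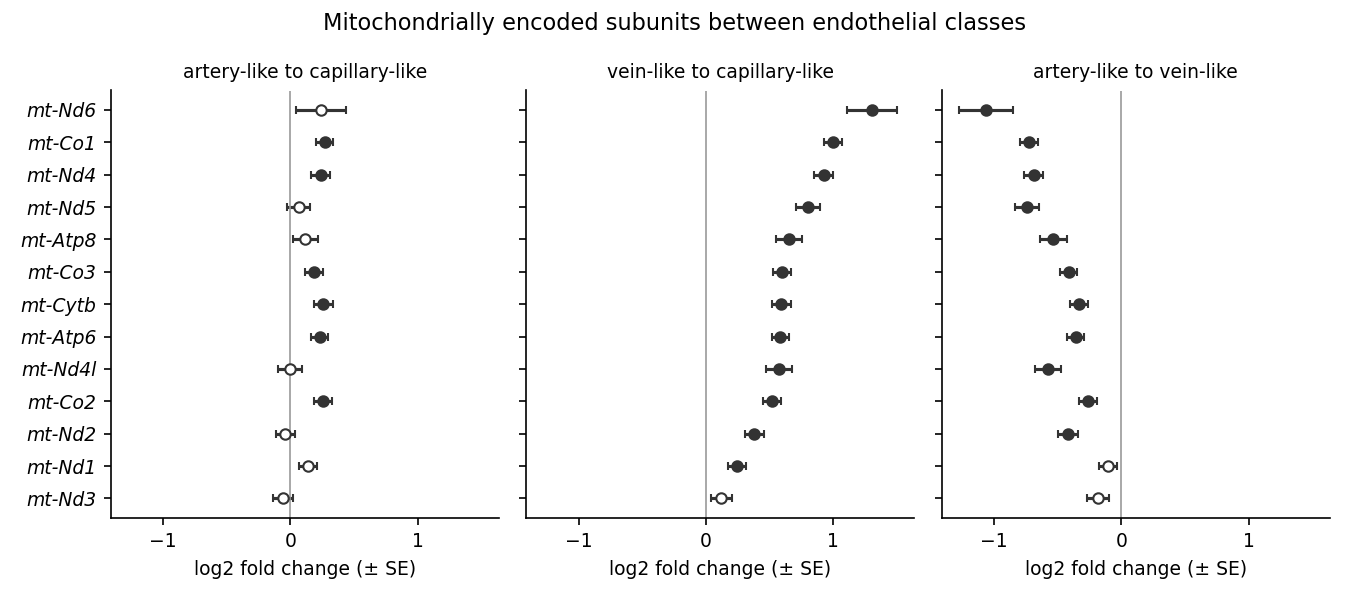
Log2 fold change of the 13 mitochondrial genes between classes, with bars of 1 SE from the edgeR fit over 3 libraries; filled points have an adjusted p under 0.05 and open points do not. In the vein-like to capillary-like panel 12 of 13 points are filled and above 0, and in the artery-like to vein-like panel 11 are filled and below 0.

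In the fit, 10 of the 13 genes had artery-like cells between the other classes, and the exceptions, mt-Nd2 (-0.04), mt-Nd3 (-0.06) and mt-Nd4l (-0.00), were not called against capillary-like cells. By library the order could differ, as for mt-Nd1, at 3693 CPM in artery-like, 3455 CPM in vein-like and 3498 CPM in capillary-like cells of the running library. Relative to capillary-like cells 6 of 13 were called higher, mt-Co1 (0.27 ± 0.07), mt-Cytb (0.26 ± 0.07), mt-Co2 (0.26 ± 0.07), mt-Nd4 (0.24 ± 0.07), mt-Atp6 (0.23 ± 0.07) and mt-Co3 (0.19 ± 0.07), and 0 were called lower (0 also at an unadjusted p under 0.05 and by DESeq2), beside 11.1% of all tested genes called higher and 10.8% lower. Relative to vein-like cells 11 of 13 were called lower and 0 higher (again 0 at an unadjusted p under 0.05 and by DESeq2), beside 13.8% of all genes lower and 12.2% higher, with a median of -0.42. In artery-like cells mt-Co1 was at 4184, 3862 and 4448 CPM, below each vein-like value (log2 fold change -0.73 ± 0.07, edgeR adjusted p = 9.44e-11). The value for mt-Nd6 (-1.06 ± 0.21) rested on the untreated library: without it the log2 fold change was -0.63 and the adjusted p 0.133.

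These calls were made relative to scaling factors that set the median gene near 0 (trimmed mean of M-values, TMM). Scaled by library totals alone, the median over all genes was -0.17 for vein-like against capillary-like cells, 0.11 for artery-like against vein-like cells and -0.05 for artery-like against capillary-like cells. The mitochondrial counts on that scale were 11 higher and 0 lower in vein-like against capillary-like cells, 0 and 10 in artery-like against vein-like cells, and 5 and 0 in artery-like against capillary-like cells. Depth also differed: median UMIs per cell were 2994.5, 2524 and 2472.5 in vein-like cells and 1307, 917 and 1414.5 in capillary-like cells of the running, sedentary and untreated libraries. Cells of at least 1000 UMIs were also thinned to 1000, with all other cells left out, so that the set of cells changed too. On these counts 20 of all members were called higher and 3 lower in vein-like against capillary-like cells. The counts were 24 and 4 with all cells unthinned. Mural markers were also higher in vein-like cells, where 13 pericyte and smooth muscle markers summed to 676, 653 and 467 CPM, against 230.002, 163 and 198 CPM in capillary-like cells; Tagln made up 418, 330 and 618 of the 496, 378 and 751 UMIs in vein-like cells, Cspg4 was at 0 in 2 and Cnn1 in 2 of the 3 libraries, and their part in the result was not tested.

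The nuclear genes did not follow the mitochondrial ones as a group. In vein-like against capillary-like cells 12 of 86 were called higher and 4 lower, with a median of 0.04, beside 12.8% of all genes called higher and 10.6% called lower. On library totals this split turned to 6 higher and 15 lower, with a median of -0.12. No called nuclear gene changed sign between the scalings. In artery-like against capillary-like cells 11 of 86 were called higher and 1 lower (median 0.12), close to the background of 11.1% for higher and below that of 10.8% for lower, and 9 and 1 on library totals. Only 3 of those nuclear genes were called higher by DESeq2. Without the running library 6 of all members were called higher and 2 lower in artery-like against capillary-like cells, without the sedentary library 10 and 1, against 17 and 1 with all libraries. In vein-like against capillary-like cells the 4 called lower became 1 without the running library, 2 without the sedentary library and 1 without the untreated library. Shares of all genes called in these reduced fits are not given here. A loss particular to the members thus cannot be told from a general loss of calls.

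The promoters of 2 nuclear genes whose levels are compared below are shown as examples. Both hold 1 of the motifs searched, and genes with larger class differences, such as Ndufa8, are not shown. The windows run from 250 bases before to 50 bases after the annotated start, from RefSeq on GRCm38.p6, and capitals mark a match to 1 of 4 motifs searched on both strands: GCATGCGC for NRF1, CCGGAAGT for ETS factors, AAGATGGCG for YY1 and TCAAGGTCA for ERR. The Atp5g2 window was chr15:102670998-102671297 (- strand) and the Uqcrh window chr4:116075021-116075320 (- strand). In GENCODE the Atp5g2 gene starts upstream of this window, at chr15:102672352.
Atp5g2: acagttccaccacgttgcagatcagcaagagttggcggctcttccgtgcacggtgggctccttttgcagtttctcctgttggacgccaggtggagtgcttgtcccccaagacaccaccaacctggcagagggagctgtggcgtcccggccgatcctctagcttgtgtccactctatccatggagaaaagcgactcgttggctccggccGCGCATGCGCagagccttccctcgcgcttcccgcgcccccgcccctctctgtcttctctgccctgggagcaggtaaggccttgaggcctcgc
Uqcrh: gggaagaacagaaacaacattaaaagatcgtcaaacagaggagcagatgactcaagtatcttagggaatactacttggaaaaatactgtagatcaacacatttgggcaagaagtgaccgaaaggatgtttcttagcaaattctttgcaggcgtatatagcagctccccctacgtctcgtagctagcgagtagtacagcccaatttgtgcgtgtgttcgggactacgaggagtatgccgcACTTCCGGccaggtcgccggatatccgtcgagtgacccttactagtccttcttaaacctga
In these windows Atp5g2 held the NRF1 letters on both strands, overlapping each other, and Uqcrh the ETS letters in reverse complement. A window was found for 77 of the 94 nuclear genes. The NRF1 letters were in 13 of them (16.9%), against 3.01% of the 26948 other genes with a window, the YY1 letters in 8 (10.4%, against 1.61%), the ETS letters in 5 (6.49%, against 4.30%) and the ERR letters in 2 (2.60%, against 0.460%). The other genes were not matched to the members for expression or base content, and the differences in share were not tested. A match describes letters and shows no binding.

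Among complex I genes, Ndufa8, an accessory subunit, separated the 3 classes. It was at 203, 182 and 182.0 CPM in artery-like cells, 454, 430.2 and 298 CPM in vein-like cells and 267, 288 and 289.6 CPM in capillary-like cells of the running, sedentary and untreated libraries. Artery-like values were below all others, and vein-like values were above the rest. The log2 fold change was -0.53 ± 0.11 for artery-like against capillary-like cells (edgeR adjusted p = 0.000163), 0.61 ± 0.11 for vein-like against capillary-like cells (edgeR adjusted p = 2.07e-05) and -1.14 ± 0.11 for artery-like against vein-like cells (edgeR adjusted p = 2.76e-10). Ndufv1, the NADH-binding flavoprotein, ran the other way. It was at 87.6, 93.6 and 70.7 CPM in artery-like cells and at 75.6, 66.8 and 47.8 CPM in capillary-like cells, a log2 fold change of 0.46 ± 0.11 (edgeR adjusted p = 0.00219). In vein-like cells it was at 51.8, 39.7 and 40.5 CPM, and artery-like cells were 0.77 ± 0.15 log2 units higher (edgeR adjusted p = 0.000157). Its partner in the NADH-oxidising module, Ndufv2, was also called higher in artery-like than capillary-like cells (0.36 ± 0.11), but not without the sedentary library (edgeR adjusted p = 0.0884) or without the untreated library (adjusted p = 0.0552). Of the assembly factors, Ndufaf3 was called lower in vein-like than capillary-like cells (-0.57 ± 0.20), a call lost without each library in turn, and higher in artery-like than vein-like cells (0.81 ± 0.20). Ndufaf6 had 1.40 ± 0.45 in artery-like against vein-like cells, at 10.7, 9.29 and 11.9 CPM against 1.36, 6.91 and 3.73 CPM, and was not called without the running library (1.13, edgeR adjusted p = 0.115) or the untreated library (1.22, adjusted p = 0.255). No gene of complex II, succinate dehydrogenase, was called in any of the 3 contrasts.

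In complex III the hinge subunit Uqcrh was higher in vein-like cells, at 616, 579 and 660.4 CPM, against 427, 434 and 519 CPM in capillary-like cells. Every vein-like value exceeded every capillary-like one, and the log2 fold change was 0.59 ± 0.09 (edgeR adjusted p = 1.49e-06). The Rieske iron-sulphur protein Uqcrfs1 was also called higher there (0.55 ± 0.12, edgeR adjusted p = 0.000513). In complex IV the structural subunit Cox6c was at 879.7, 939.8 and 753 CPM in vein-like cells, against 631, 648 and 634 CPM in capillary-like cells (0.58 ± 0.08, edgeR adjusted p = 8.22e-07). Cox7a2l, the supercomplex factor, was at 701, 612 and 777 CPM in vein-like cells, against 439, 390.3 and 582 CPM in capillary-like cells. Its log2 fold change was 0.74 ± 0.09 (edgeR adjusted p = 1.59e-08), and within each library vein-like cells were the higher class. Cox5a, a nuclear subunit that binds the complex IV core, was instead highest in artery-like cells, at 334, 355 and 250.4 CPM, against 261, 269 and 200.1 CPM in capillary-like cells (0.40 ± 0.09, edgeR adjusted p = 0.000463) and 226, 238 and 154 CPM in vein-like cells (0.50 ± 0.10 for artery-like against vein-like cells, edgeR adjusted p = 0.000154). Cytochrome c (Cycs), the mobile electron carrier, was called lower in vein-like than capillary-like cells (-0.33 ± 0.11, edgeR adjusted p = 0.0231), a call lost without the running library (adjusted p = 0.277) or the untreated library (adjusted p = 0.0608).

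Complex V had the most nuclear genes called higher in artery-like against capillary-like cells, 5 of 15, beside 11.1% of all tested genes. DESeq2 called only 3 nuclear genes of all complexes higher in this contrast. The catalytic beta subunit Atp5b was at 459, 444 and 375 CPM in artery-like cells, against 354, 378 and 286 CPM in capillary-like cells (0.38 ± 0.09, edgeR adjusted p = 0.00132), and the alpha subunit Atp5a1 had 0.35 ± 0.09. Atp5j, the coupling factor 6 of the peripheral stalk, was lower in vein-like cells, at 657, 777 and 598 CPM, against 1017, 1009.5 and 924 CPM in capillary-like cells (-0.39 ± 0.08, edgeR adjusted p = 0.000371). 3 genes, Atp5g1, Atp5g2 and Atp5g3, encode the same mature c subunit of the rotor ring. Atp5g2 had the largest nuclear fold change in artery-like against capillary-like cells (0.56 ± 0.20, edgeR adjusted p = 0.039), and in vein-like against capillary-like cells it had 0.79 ± 0.24 (edgeR adjusted p = 0.0119). It was at 21.3, 29.3 and 18.0 CPM in artery-like, 25.9, 43.2 and 13.1 CPM in vein-like and 13.1, 23.1 and 12.7 CPM in capillary-like cells, and its calls were lost in most alternatives: without the running library the adjusted p was 0.191 and 0.132, without the sedentary library 0.106 and 0.189, and, for artery-like cells, without the untreated library 0.0886. It rested on 42, 76 and 42 capillary-like UMIs, and its exons overlap the microRNA gene Mir688 by 75 bases. Atp5g3 was called higher in artery-like cells relative to capillary-like (0.31 ± 0.09) and vein-like cells (0.46 ± 0.11), the second not without the running library (edgeR adjusted p = 0.0513).

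**Figure D3:**
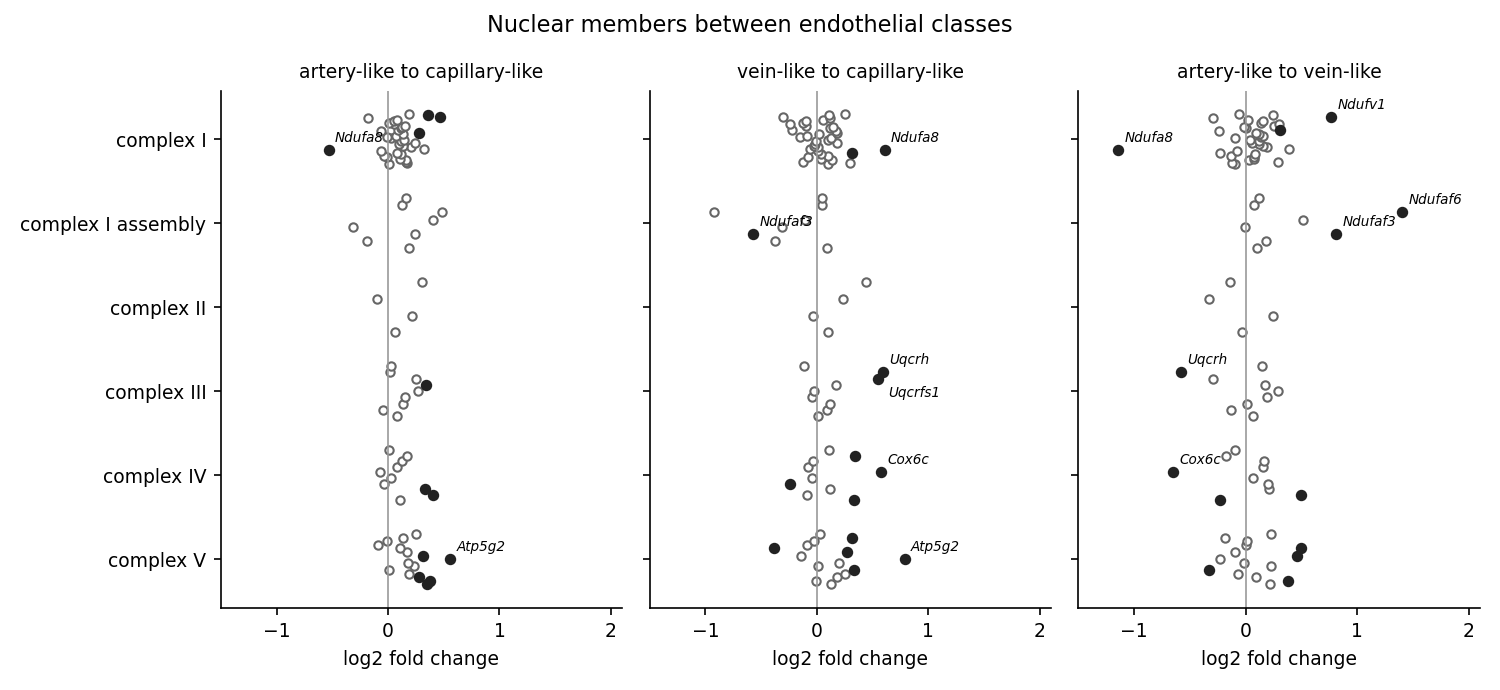
Log2 fold change of nuclear genes by complex in the 3 class contrasts, 1 point a gene; filled points have an edgeR adjusted p under 0.05, and called genes at or beyond 0.5 are named. Most points lie near 0 in each complex, and Ndufa8 is below 0 in both artery-like panels and above 0 in the vein-like to capillary-like panel.

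Several complex IV subunits have tissue isoforms. The general forms were abundant in capillary-like cells: Cox4i1 had 2829, 3016 and 2713 UMIs in the running, sedentary and untreated libraries, Cox6a1 1938, 2093 and 1306, Cox7a2 1675, 1653 and 1393, and Cox8a 1824, 1804 and 1645. The muscle forms had few UMIs in all endothelial-like cells, Cox6a2 17, 7 and 5, Cox7a1 28, 7 and 22, and Cox8b 11, 9 and 12. 7 of the running Cox6a2 UMIs, 5 of the Cox7a1 UMIs and 5 of the Cox8b UMIs fell in cluster 10, a group of 107 cells in which 1 running barcode held 169 muscle fibre UMIs. Cluster 0 held 8 running Cox6a2 UMIs, and vein-like clusters 5 and 6 held 3 and 6 running Cox7a1 UMIs. Cox6b1 was at 488, 458 and 384 CPM in capillary-like cells. Its isoform Cox6b2 had 19, 9 and 16 UMIs in all endothelial-like cells, with 6, 2 and 11 in vein-like cluster 5. Cox4i2, the isoform of the oxygen-responsive form of complex IV, and Ndufa4l2, a paralogue of Ndufa4, marked the mural-like cluster 11. In its 38 running, 12 sedentary and 46 untreated cells Cox4i2 had 24, 12 and 31 UMIs and Ndufa4l2 115, 19 and 99, against 6, 1 and 4 and 19, 4 and 8 in the far larger cluster 0. Artery-like cluster 3 had 11, 8 and 14 Cox4i2 UMIs and artery-like cluster 4 had 3, 8 and 0. Cox4i2 was at 183, 455 and 216 CPM in cluster 11 and at 13.4, 10.2 and 7.14 CPM in cluster 3. Cluster 11 was also high in mitochondrial transcripts, at 45718, 45863 and 40155 CPM, and had nuclear sums of 23294, 21870.1 and 20879 CPM. Lymphatic-like cells (43, 10 and 27 cells) had 31633, 35476 and 26226 CPM of mitochondrial and 20948, 23120.0 and 18751 CPM of nuclear genes.

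The running and sedentary libraries are the comparison that the study's design names. In capillary-like cells 2 of 95 members with at least 100 UMIs over both libraries were higher in the running library by at least 0.32 log2 units and 3 were lower by as much, where 9.15% and 11.8% of all genes were. The share of members past this difference was below that of all genes in both directions. Here and in the other library comparisons the shares were not matched for UMIs per gene, and counting error is wider for genes with few UMIs. The nuclear median log2 ratio was 0.01 (95% order-statistic interval over genes -0.04 to 0.03), against -0.02 over all genes, and the mitochondrial median was -0.07. The members past the fold were Ndufaf2 (0.35, 95% counting interval -0.01 to 0.72) and mt-Nd6 (0.45, -0.09 to 1.02) on the higher side, and Atp5g2 (-0.81, -1.40 to -0.26), mt-Atp8 (-0.54, -0.74 to -0.35) and the complex III core protein Uqcrc1 (-0.36, -0.57 to -0.16) on the lower side. By complex the sums were close: complex I nuclear genes summed to 6447, 6478 and 5503 CPM in the running, sedentary and untreated libraries, complex III to 2377, 2462 and 2011 CPM, complex IV to 4898, 4875 and 4230 CPM, and complex V to 5078, 5089 and 4415 CPM.

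The mix of clusters differed between the libraries, and its part in the capillary-like ratios was not tested. In cluster 1 the nuclear sum was 18101, 15886 and 16506 CPM in the running, sedentary and untreated cells, in cluster 0 it was 18768, 18953 and 16360 CPM, and in cluster 2 it was 25245, 25010.4 and 21718 CPM. Without the low-UMI cluster 1, which held 1211 of the 2833 sedentary capillary-like cells, the running to sedentary nuclear median was -0.06, and with cells thinned to 1000 UMIs it was -0.07. With cluster 1 left out the mix still differed. Clusters 0 and 2 held 1032 and 545 running cells, against 710 and 841 sedentary cells. In artery-like cells 0 of 90 members were past the fold in either direction, where 9.58% of all genes were higher and 9.49% lower, and the nuclear median was 0.01 (-0.04 to 0.05). In vein-like cells 1 of 83 members was higher and 6 were lower, where 11.3% and 12.6% of all genes were, and the nuclear median was -0.14 (-0.17 to -0.07). Those lower were Uqcrc1 (-0.70), the c subunit gene Atp5g3 (-0.44), Ndufs7 (-0.41), cytochrome c1 (Cyc1, -0.36), Atp5b (-0.35) and Ndufb10 (-0.33), and Ndufs3 was higher (0.49), on 38 to 225 UMIs per library. Most vein-like cells were in cluster 5 in the running (128 of 228) and untreated libraries (490 of 622) and in cluster 6 in the sedentary library (133 of 229).

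Ranked by the smaller of the running to sedentary and running to untreated ratios, the complex II subunits Sdhd (0.23 and 0.46) and Sdhb (0.15 and 0.50), Ndufv1 (0.18 and 0.66), Atp5g1 (0.17 and 0.76) and Cox7b (0.20 and 0.15) were highest in capillary-like cells. Atp5g1 stood at 239.96, 213 and 141 CPM in the running, sedentary and untreated libraries. The lowest were Uqcrfs1 (-0.23 and -0.25), Ndufb5 (-0.14 and -0.14) and Ndufa8 (-0.11 and -0.12). The 95% counting interval of the running to sedentary ratio held 0 for Sdhd, Sdhb, Ndufv1, Uqcrfs1, Ndufb5 and Ndufa8, and not for Atp5g1 (0.02 to 0.32) or Cox7b (0.04 to 0.37). In artery-like cells Ndufa9 (0.30 and 0.59) and Ndufc1 (0.27 and 0.25) were highest, and Ndufa7 (-0.16 and -0.28) and Ndufs8 (-0.32 and -0.12) lowest. In vein-like cells Ndufs3 (0.49 and 0.78) was highest, followed by Sdhb (0.21 and 0.71), and Ndufa6 (-0.26 and -0.06) was lowest. The counting intervals of all these artery-like and vein-like running to sedentary ratios held 0. Ndufs3 lay on opposite sides in artery-like cells (-0.22 and -0.05) and vein-like cells.

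More nuclear members were higher than lower in the running and the sedentary library, each against the untreated one. Running to untreated, 31 of 80 nuclear members were higher by at least 0.32 log2 units in capillary-like cells and 1 lower, beside 27% and 16.4% of all genes. Sedentary to untreated, 35 of 82 were higher and 2 lower, beside 29.2% and 15.7%. With the mitochondrial genes included, 34 of 93 were higher and 3 lower running to untreated, and 40 of 95 and 5 sedentary to untreated. The nuclear medians were 0.24 and 0.27, against 0.09 and 0.10 over all genes; with TMM factors the medians over all genes became -0.03 and -0.02 and the nuclear medians 0.12 and 0.15. Uqcrb, a complex III subunit that binds ubiquinone, was at 450.05, 487 and 261 CPM in capillary-like cells of the running, sedentary and untreated libraries (running to untreated 0.79, 95% counting interval 0.66 to 0.91). Ndufa5, an accessory complex I subunit, was at 185, 184 and 111 CPM (0.74, 0.55 to 0.93) and Cycs at 220.04, 204 and 141 CPM (0.64, 0.47 to 0.82). Cox7a2l went the other way, at 439, 390.3 and 582 CPM (-0.41, -0.51 to -0.31). The nuclear median running to untreated was 0.24 in artery-like cells, with 27 of 80 nuclear members higher and 0 lower beside 21.9% and 19.1% of all genes. In vein-like cells it was 0.40, with 47 of 74 higher and 0 lower beside 23.6% and 23.3%. With the mitochondrial genes included, 31 of 92 members were higher and 2 lower in artery-like cells, and 51 of 87 and 3 in vein-like cells. Both ratios share the untreated library, for which batch and group cannot be told apart.

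Of 13 mitochondrial genes in capillary-like cells, 3 were higher running to untreated by at least 0.32 log2 units and 2 were lower. The shares over all genes were 27% and 16.4%. Above 0 were 8 of the 13. mt-Co1 (3424 against 3680 CPM), mt-Nd5 (196 against 220 CPM) and mt-Nd6 (20.9 against 22.7 CPM) were lower by less. mt-Nd1 of complex I was at 3498, 3854 and 2127 CPM in capillary-like cells of the running, sedentary and untreated libraries (running to untreated 0.72, 0.67 to 0.76). mt-Co2 (0.45) and mt-Atp6 (0.41) were also past that difference, and mt-Nd3 (0.29) was higher by less. mt-Atp8, the small complex V subunit, was instead at 112, 163 and 378 CPM (-1.76, -1.93 to -1.59), and mt-Nd4l of complex I at 147, 131 and 248 CPM (-0.75, -0.92 to -0.58). Both were lower than in untreated cells in every class: mt-Atp8 had -1.49 in artery-like and -1.86 in vein-like cells, and mt-Nd4l -0.96 and -1.07. These genes lie next to members that moved the other way. The coding regions of mt-Atp8 (chrM:7766-7969) and mt-Atp6 (chrM:7927-8607), which share 43 bases, are made as a single transcript, as are mt-Nd4l (chrM:9877-10173) and mt-Nd4 (chrM:10167-11544), which share 7 bases, so that counts of each pair cannot be fully told apart by position. The sources used here do not say how reads in the shared bases were assigned.

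**Figure D4:**
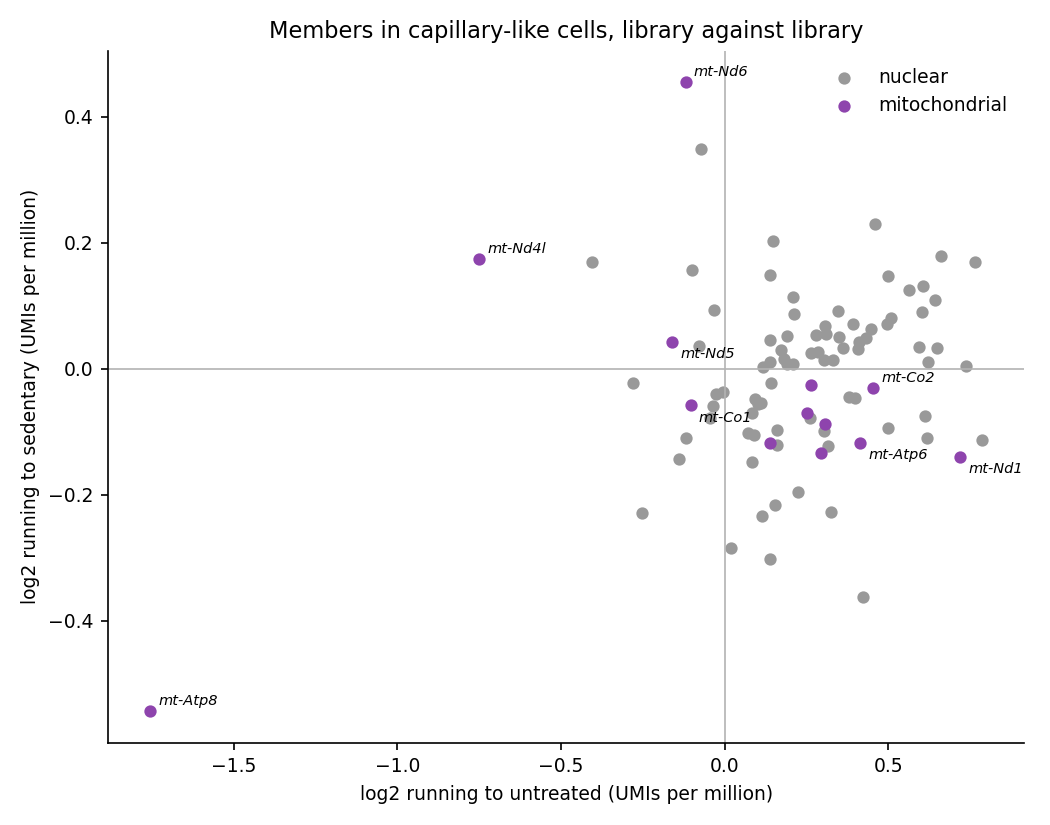
Log2 ratio of each member in capillary-like cells, running to untreated (horizontal) against running to sedentary (vertical), for members with at least 100 UMIs in both pairs of libraries; grey points are nuclear and purple points mitochondrial genes. Both axes share the running library. mt-Atp8 lies at -1.76 and -0.54, apart from the rest, and most nuclear genes lie to the right of 0.

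Within each class, a pair of clusters differed in the nuclear genes and much less in the mitochondrial ones. These pairs were chosen after their values were seen, and the differences are given with no test. In cluster 0 against cluster 2 (capillary-like) the median nuclear log2 ratio was -0.52, -0.51 and -0.50 in the running, sedentary and untreated libraries, while the mitochondrial median was -0.02, 0.11 and 0.02. In cluster 3 against cluster 4 (artery-like) the nuclear medians were -0.48, -0.49 and -0.36 and the mitochondrial ones -0.23, -0.13 and -0.19. In cluster 5 against cluster 6 (vein-like) they were -0.48, -0.67 and -0.56, and -0.09, -0.20 and -0.06. The median over all genes was between -0.08 and -0.01 in these comparisons.

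Lower by at least 0.32 log2 units in all 3 libraries were 48 of 80 nuclear members in cluster 0 against 2 (11.9% of all genes), 34 of 77 in cluster 3 against 4 (11% of all genes) and 37 of 69 in cluster 5 against 6 (17.2% of all genes). In each pair 0 nuclear members were higher by this rule, beside 6.23%, 7.08% and 8.42% of all genes, and 0 of 12 mitochondrial genes passed it either way. In all 3 pairs and all 3 libraries 23 of 69 nuclear genes were lower by this rule, beside 8.4% of the 1750 genes with enough UMIs in every pair. They came from complexes I (among them Ndufa5, Ndufv2 and Ndufs8), II (Sdhb), III (Uqcrb, Uqcrc1 and Uqcrc2), IV (Cox5a, Cox5b, Cox6b1, Cox6c, Cox7b and Cox7c) and V (Atp5d, Atp5j2 and Atp5o). Uqcrb had -0.96, -1.04 and -0.96 in cluster 0 against 2, -0.82, -0.69 and -0.85 in cluster 3 against 4 and -1.20, -1.12 and -0.62 in cluster 5 against 6. Other genes moved with the pairs. The immediate early gene Jun was at 4664, 4094 and 4717 CPM in cluster 0 and 641, 599 and 809 CPM in cluster 2, at 3930, 3460 and 3991 CPM in cluster 3 and 529, 358 and 666 CPM in cluster 4, and at 2887, 2636 and 3646 CPM in cluster 5 and 521, 488 and 967 CPM in cluster 6. Ribosomal protein genes summed to 131005, 140490.0 and 148344 CPM in cluster 0 and 118212, 122091 and 128105 CPM in cluster 2. The part of these genes in the nuclear difference was not tested.

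**Figure D5:**
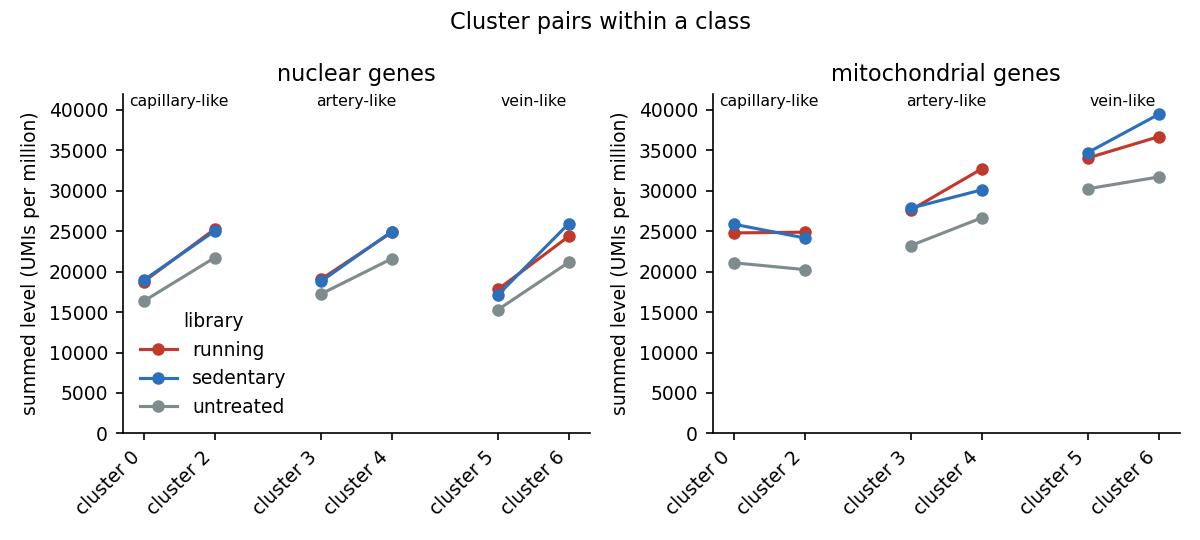
Summed level (CPM) of nuclear and mitochondrial genes in clusters 0 and 2 (capillary-like), 3 and 4 (artery-like) and 5 and 6 (vein-like), 1 line for each library. In every library the nuclear line is lower in cluster 0, 3 and 5 than in its partner, as with 18768 CPM in cluster 0 and 25245 CPM in cluster 2 of the running library, while the mitochondrial lines of clusters 0 and 2 are nearly level.

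Other genes of mitochondrial energy supply were taken as lists. The mitochondrial ribosome, which translates the 13 mitochondrial genes, had 30 of 70 genes higher by at least 0.32 log2 units and 1 lower running to untreated in capillary-like cells (median 0.29), beside 27% and 16.4% of all genes and their median of 0.09, and 2 higher and 3 lower of 72 running to sedentary (median 0.00). The tricarboxylic acid cycle, which feeds the chain with NADH and succinate, had 9 of 16 higher and 0 lower running to untreated (median 0.35), and 0 higher and 2 lower, Idh3g and Dlat, running to sedentary. Of the import machinery 7 of 19 were higher and 0 lower running to untreated (median 0.21), beside the same 27% and 16.4%. Of the assembly factors outside the naming rule, 6 of 24 were higher and 0 lower in that comparison (median 0.16). Of the biogenesis genes, 2 of 8 were higher and 3 lower in it (median 0.099). Running to sedentary, 9.15% of all genes were higher and 11.8% lower. Between classes, in vein-like against capillary-like cells 2 of 77 mitochondrial ribosome genes were higher and 3 lower, 0 of 16 cycle genes either way, and 1 of 21 import genes higher and 2 lower, beside 12.8% and 10.6% of all genes. Of 35 assembly factors outside the naming rule, 5 were higher in artery-like than capillary-like cells (Surf1, Higd1a, Cox11, Nubpl and Uqcc2) and 0 lower, beside 11.1% and 10.8% of all genes. In the biogenesis list, 1 of 12 genes, Slirp, was higher and 1, Gabpb1, was lower in vein-like against capillary-like cells. Ppargc1a, the coactivator best known for driving mitochondrial biogenesis in muscle, had 5, 3 and 4 UMIs in running, sedentary and untreated capillary-like cells, too few for a comparison. Tfam, which packages mitochondrial DNA, had 92, 80 and 72 UMIs, and its vein-like to capillary-like log2 fold change was 0.09 ± 0.21 (edgeR adjusted p = 0.83).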

How the data were processed

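Counts of UMIs per gene and cell were deposited as 1 matrix for each of 3 libraries, made by the authors with Cell Ranger 2.0.2 on GRCm38.p5, per the submitters' processing notes; no normalization had been applied to them. Cells with at least 300 genes and at most 10% mitochondrial UMIs were kept. Scrublet called 0 doublets, so it did not work here and none were removed. Cells were clustered (scanpy 1.11.5) with the members left out, and classes were named from marker genes by thresholds set after the data were seen. Summed counts of artery-like, vein-like and capillary-like cells were fitted with edgeR 4.0.16 (quasi-likelihood, TMM, Benjamini-Hochberg) with the library as a block, since the classes of a library come from the same preparation; DESeq2 1.42.0 was an alternative. Tested on simulated counts for artery-like against capillary-like cells (10134 genes, 200 changed), the edgeR step recovered 92% of 2-fold and 44% of 1.5-fold changes with 7 false calls. The simulated counts had a fixed dispersion and no difference between libraries. In the real contrast 2225 genes were called and the libraries differed, so these rates need not hold for it.

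Libraries were compared by log2 ratios of CPM with a prior count of 0.5 and exact conditional Poisson 95% intervals, for genes with at least 100 UMIs over both libraries, and 0.32 log2 units was the difference counted. UMIs remove amplification copies, and the intervals cover counting error only. Named genes were the 6 called members with the largest fold changes each way in a class contrast, the 5 nuclear members highest and lowest in running against both other libraries, all mitochondrial members, isoform sets and the 2 members of each complex with most UMIs; Ndufa5, Ndufaf2, Uqcrc1, Cyc1, Ndufs7, Ndufb10, Atp5d and Atp5o were named after their values were seen. The NRF1 and YY1 motifs were shortened after shares for longer forms had been seen. The members, lists and tests were chosen with earlier results of these data known. Gene positions are from GENCODE M21 (GRCm38) and promoters from RefSeq.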

Additional observations from a re-analysis of the deposited data

Results flagged for a closer look

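The running to sedentary ratio of the summed mitochondrial genes had opposite signs between classes. The log2 ratio was 0.0444 in artery-like cells (95% counting interval 0.0243 to 0.0645), against -0.0827 in capillary-like cells (-0.0963 to -0.0691). In vein-like cells it was -0.0836 (-0.110 to -0.0573), set against the same 0.0444 in artery-like cells. For the 3 mitochondrial complex IV genes alone the ratio was 0.111 in artery-like cells (0.0802 to 0.142) and -0.0376 in capillary-like cells (-0.0589 to -0.0164). With 1 library in each group these differences between classes were not tested.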

How the results depend on the processing

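Of 513 values of named genes under the alternatives, 431 kept direction and side of the threshold, 82 lost their call and 0 reversed. No paired analysis was possible between the groups because each has 1 library; with no replicate block in the class fit, the counts were 0 higher and 0 lower in artery-like against capillary-like cells, 13 and 0 in vein-like against capillary-like cells, and 2 and 10 in artery-like against vein-like cells. Artery-like against capillary-like, 17 members were higher and 1 lower; the higher count was 8 with DESeq2, 11 with at least 500 genes, 11 with mitochondrial UMIs at most 5% (2 lower), 11 when thinned, 30 with no mitochondrial filter, and 6 to 17 with 1 library left out (1 to 2 lower). Vein-like against capillary-like, the 4 lower became 1 with DESeq2, 2 without high doublet scores, with members kept in clustering, with no mitochondrial filter or at resolution 1.5, 8 at resolution 0.5, 15 with library totals, and 1 to 2 with 1 library left out. Artery-like against vein-like, the 8 higher became 16 with members kept, 22 with no mitochondrial filter, 14 at resolution 1.5, 5 when thinned and 25 with library totals. Running to sedentary in capillary-like cells, the 5 members past the difference became 8 at 20 UMIs, 2 at 300 UMIs, and 3 at resolution 0.5, at most 5% mitochondrial UMIs, without high doublet scores or over all endothelial-like cells; the nuclear median was -0.068 when thinned and -0.063 without the low-UMI cluster. With TMM factors the nuclear medians against the untreated library were 0.123 (running) and 0.150 (sedentary), and the 45 sedentary to untreated members past the difference became 29. The fits with library totals and without the low-UMI cluster were chosen after seeing the data. For each of these the cause was not tested, and the shares of all genes under each setting are not given here. Depth limits genes with few UMIs, such as mt-Nd6 and Atp5g2.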
